A study of Mus musculus with 6 samples.

Results

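Alveolar type 1 (AT1) cell genes were followed in whole-lung RNA-sequencing of TNF-transgenic mice. The 10 genes, Ager, Hopx, Aqp5, Pdpn, Rtkn2, Clic5, Akap5, Emp2, Spock2 and Cldn18, were taken by symbol from the 49568 gene symbols of the raw count table, and all 10 were among the 19199 genes with enough counts to test. Lungs came from 3 TNF-transgenic mice (TNF+), which carry a human TNF gene in addition to their own, and from 3 wild-type littermates (TNF-), all C57BL/6 females killed at 4 months of age. Each lung gave 1 stranded poly(A) library, so n = 3 per group throughout. The human transgene has no row of its own among the mouse symbols, so carriers are known from the labels alone. The transgene acts in the whole animal rather than in a chosen lung cell. No label says that a replicate number shared by a TNF+ and a TNF- library links the animals.

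AT1 cells are the very thin, flat cells that cover most of the alveolar surface and, with the capillary endothelium beneath, form the barrier across which gas is exchanged. In the adult lung they can arise from alveolar type 2 (AT2) cells, the cuboidal makers of surfactant. AT2 cells divide after injury and pass through a keratin-rich transitional state while they flatten. The transcriptional regulators YAP and TAZ, with their TEAD partners, and the lung factor NKX2-1 are known to set the AT1 program. Ager is the classic marker of these cells in the lung, while Pdpn is also made by lymphatic endothelium, mesothelium and stromal cells of lymphoid tissue, and Cldn18 also by AT2 cells. Clic5 is not restricted to AT1 cells either. The paper lists it among markers of synovial lining fibroblasts and reports its overlap with the endothelial gene Cdh5.

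Total counts ran from 25396923 to 30049463 in TNF+ lungs and from 31400978 to 32529408 in TNF- lungs, so that every TNF+ library was the shallower. A total of 3 counts, taken as the floor, corresponded to 0.0922 to 0.118 CPM (counts scaled to a fixed library total), far below every member in every lung. A single gene that collects ribosomal RNA reads, Gm42418, took 5.22% of the counts of TNF+ replicate 1 and 0.0774% to 0.274% elsewhere. TNF- replicate 1 carried squamous and skeletal muscle transcripts. The 5 squamous genes summed to 0.516 to 1.38 CPM in TNF+ lungs and 1.51 to 3354 CPM in TNF- lungs, and the 4 muscle genes to 11.4 to 34.8 and 28.0 to 1338 CPM, the highest being that lung in both. Its normalized count of the basal keratin Krt5 was 2501, against 27.8 and 53.3 in the other TNF- lungs, that of the muscle creatine kinase Ckm was 8714 against 675 and 554, and that of the muscle troponin Tnnt3 was 5750 against 83.4 and 126. All 10 members were still called without either library, with log2 fold changes of -2.32 to -0.84 without TNF+ replicate 1 and -2.19 to -0.74 without TNF- replicate 1.

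Promoters are shown because the AT1 program is known to be read out through TEAD and NKX2-1 sites. RefSeq promoters (build GRCm38.p6, 250 bases before to 50 after a start site) were found for 9 members, 11 promoters in all, with no entry for Rtkn2. The 250 bases before the start are given 5′ to 3′ for the 3 members that hold the letters CATTCT, which are in capitals, and for Emp2, the member with the largest fall, which holds none of the letters searched.
Ager, chr17:34597600-34597849, plus strand: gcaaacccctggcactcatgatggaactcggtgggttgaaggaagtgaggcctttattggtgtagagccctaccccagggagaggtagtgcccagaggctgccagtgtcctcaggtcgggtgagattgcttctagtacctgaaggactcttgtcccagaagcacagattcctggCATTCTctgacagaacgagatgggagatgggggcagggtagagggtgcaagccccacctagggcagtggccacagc
Clic5, chr17:44188322-44188571, plus strand: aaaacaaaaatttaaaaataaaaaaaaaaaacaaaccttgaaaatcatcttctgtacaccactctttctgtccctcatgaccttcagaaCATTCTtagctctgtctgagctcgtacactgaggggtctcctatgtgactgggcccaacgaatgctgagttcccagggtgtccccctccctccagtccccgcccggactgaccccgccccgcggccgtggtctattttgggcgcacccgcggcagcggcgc
Hopx, chr5:77115124-77115373, minus strand: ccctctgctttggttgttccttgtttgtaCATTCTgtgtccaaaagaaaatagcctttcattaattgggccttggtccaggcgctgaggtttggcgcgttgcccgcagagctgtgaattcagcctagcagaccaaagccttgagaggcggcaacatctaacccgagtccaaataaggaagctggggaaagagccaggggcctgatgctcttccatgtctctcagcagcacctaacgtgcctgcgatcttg
Emp2, chr16:10313969-10314218, minus strand: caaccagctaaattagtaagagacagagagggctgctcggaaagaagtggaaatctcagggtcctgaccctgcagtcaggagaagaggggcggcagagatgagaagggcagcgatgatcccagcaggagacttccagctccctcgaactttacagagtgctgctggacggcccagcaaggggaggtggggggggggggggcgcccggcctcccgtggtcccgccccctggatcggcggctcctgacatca
The Hopx promoter shown is the more upstream of its 2 entries.

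The TEAD core CATTCC, searched on both strands of all 32851 promoters, occurred in 14.7% of them and in 0 of the 11 member promoters. Its variant CATTCT occurred in 16.4% of all promoters and in 3 of the 11, those of Ager, Clic5 and Hopx. The NKX core CAAGTG occurred in 13.6% of all promoters and in 3 of the 11, namely those of Spock2, of Cldn18 and of Hopx at a downstream start. These are matches of letters within a short window and say nothing of binding. GC content ranged among the members from 48.7% for Pdpn to 79.7% for Aqp5, with a median of 52.7% over all promoters.

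All 10 AT1 genes were lower in TNF+ lungs by edgeR's quasi-likelihood test, adjusted for all genes tested by the Benjamini-Hochberg method as are all adjusted p given here. Of the 19199 genes, 47.4% were called at an adjusted p of 0.05, 23.4% as lower and 24.0% as higher. The members' log2 fold changes (TNF+ minus TNF-) ran from -2.25 for Emp2 to -0.71 for Pdpn, with a median of -1.57, against a median of 0.03 over all genes tested. A log2 fold change of -1 or less with that adjusted p was reached by 9 members, all but Pdpn, and by 12.2% of genes tested. For each of the 10, every TNF+ lung lay below every TNF- lung, a separation seen in 28.2% of genes tested. In whole-lung RNA, fewer AT1 cells and less of these transcripts per cell cannot be told apart, nor can a smaller share of the lung's RNA coming from the epithelium.

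**Figure D1:**
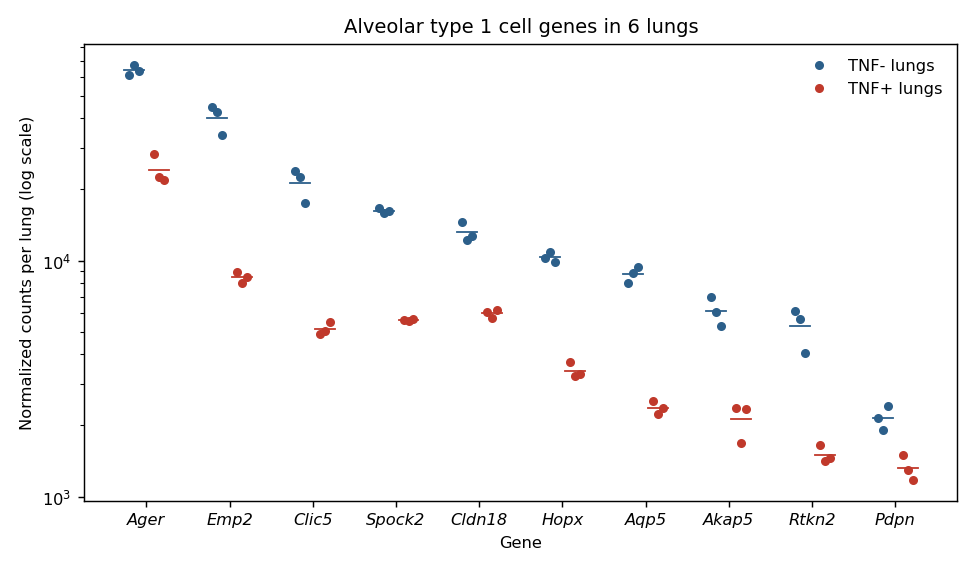
Normalized counts (log axis) of the 10 AT1 genes in each of the 6 lungs, with points for lungs and bars for group means. The TNF+ points lie under the TNF- points for every gene, with the narrowest gap for Pdpn.

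Of the surface proteins, Ager encodes RAGE, a receptor for advanced glycation end products and S100 proteins that lies on the basal side of AT1 cells (ENSMUSG00000015452.14, GRCm38 chr17:34597862-34600936, plus strand). Its normalized counts were 28251, 22635 and 21839 in TNF+ replicates 1 to 3 and 60975, 67504 and 63777 in TNF- replicates 1 to 3. The highest TNF+ lung reached 46.3% of the lowest TNF- lung, so the groups were well apart, and the TNF+ lung with the most Ager was replicate 1. The group mean was 24242 ± 3495 (SD, n = 3) in TNF+ and 64085 ± 3275 in TNF- lungs, and the log2 fold change was -1.40 (SE 0.15, 95% interval -1.75 to -1.05, adjusted p = 0.000205).

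Aqp5 encodes the water channel of the apical AT1 membrane (ENSMUSG00000044217.17, chr15:99590782-99594829, plus strand). Normalized counts of 2546, 2233 and 2369 in TNF+ lungs stood against 8024, 8846 and 9396 in TNF- lungs. The lungs within each group lay close together, and the TNF+ mean was 27.2% of the TNF- mean. On the log2 scale Aqp5 fell by 1.88 (SE 0.11, 95% interval -2.13 to -1.63, adjusted p = 1.18e-05).

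Pdpn encodes podoplanin, a mucin-like surface glycoprotein that binds the platelet receptor CLEC-2 outside the cell and ezrin-family proteins inside it (ENSMUSG00000028583.14, chr4:143267431-143299564, minus strand). Its normalized counts were 1497, 1298 and 1175 in TNF+ lungs and 2146, 1920 and 2410 in TNF- lungs. The groups did not overlap but came closest of all members, the highest TNF+ lung lying at 78.0% of the lowest TNF- lung. The log2 fold change was -0.71 (SE 0.12, 95% interval -0.99 to -0.42, adjusted p = 0.00218), and among the members its interval overlapped with that of Cldn18 alone. Markers of other cells known to make Pdpn moved both ways. The 3 lymphoid stromal genes (Cxcl13, Ccl19 and Tnfsf11) summed to 720 to 927 CPM in TNF+ lungs and 7.20 to 14.9 CPM in TNF- lungs, with 3 of 3 higher. Tnfsf11 had 3, 3 and 4 raw counts in TNF- lungs, at the floor, against 23, 29 and 15 in TNF+ lungs, and was left out where at least 10 counts in every lung were required, so its call rests on few reads. The 5 lymphatic markers summed to 201 to 272 CPM in TNF+ lungs and 415 to 535 CPM in TNF- lungs, with 3 of 5 lower (2 of 5 without TNF+ replicate 3, TNF- replicate 1 or TNF- replicate 2), namely the hyaluronan receptor Lyve1 (log2 fold change -3.06), the growth factor receptor Flt4 (-1.40) and Mmrn1 (-0.78), while Prox1, the lymphatic identity factor, was at 0.16 (adjusted p = 0.655). The 4 mesothelial markers summed to 74.7 to 122 CPM and 114 to 267 CPM, with 2 of 4 lower, Upk3b (-1.83) and Lrrn4 (-1.31), while Msln (-0.04) and Wt1 (0.48) did not pass. Without TNF- replicate 3, Wt1 was called higher. Their part in the Pdpn value was not tested.

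Of the junction and membrane-domain proteins, Emp2 encodes a tetraspan protein of membrane microdomains, found with caveolins and integrins (ENSMUSG00000022505.9, chr16:10281749-10313968, minus strand; its promoter is among those shown). It was the member that fell most, from 44614, 42503 and 33922 normalized counts in TNF- lungs to 8942, 8065 and 8488 in TNF+ lungs. TNF- replicate 3 was the lowest of its group, yet the highest TNF+ lung reached 26.4% of it. The log2 fold change was -2.25 (SE 0.15, 95% interval -2.59 to -1.91, adjusted p = 1.92e-05), a TNF+ mean of 21.1% of the TNF- mean.

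Cldn18 encodes a claudin of alveolar tight junctions (ENSMUSG00000032473.13, chr9:99689461-99717267, minus strand). Its normalized counts were 6034, 5716 and 6153 in TNF+ lungs and 14500, 12201 and 12735 in TNF- lungs. After Pdpn it fell least, to 45.4% of the TNF- mean, with a log2 fold change of -1.14 (SE 0.11, 95% interval -1.40 to -0.88, adjusted p = 0.000119).

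Clic5, Akap5 and Rtkn2 encode proteins of the cell cortex and its signalling. Clic5 belongs to the chloride intracellular channel family and associates with ezrin and cortical actin (ENSMUSG00000023959.9, chr17:44188584-44280172, plus strand). It was at 4875, 5019 and 5498 normalized counts in TNF+ lungs and 23864, 22595 and 17504 in TNF- lungs. The TNF+ lungs differed little, and TNF- replicate 3 was again the lowest of its group. The log2 fold change was -2.06 (SE 0.15, 95% interval -2.39 to -1.72, adjusted p = 2.8e-05).

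Akap5 encodes an anchor that holds protein kinase A and calcineurin near membrane receptors (ENSMUSG00000021057.15, chr12:76324891-76334153, plus strand). Its normalized counts were 2376, 1689 and 2345 in TNF+ lungs and 7008, 6026 and 5258 in TNF- lungs. TNF+ replicate 2 was the low lung, which gave Akap5 the widest spread of any member among TNF+ lungs (coefficient of variation 18.2%). For Akap5 the log2 fold change was -1.51 (SE 0.17, 95% interval -1.89 to -1.13, adjusted p = 0.000211).

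Rtkn2 (ENSMUSG00000037846.18, chr10:67979570-68059740, plus strand) was at 1647, 1415 and 1454 normalized counts in TNF+ lungs and 6099, 5641 and 4067 in TNF- lungs. Here too TNF- replicate 3 was low, and Rtkn2 had the widest spread of any member among TNF- lungs (coefficient of variation 20.2%). The fall, a log2 fold change of -1.81 (SE 0.16, 95% interval -2.18 to -1.44, adjusted p = 7.34e-05), exceeded that spread.

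Hopx encodes a small homeodomain protein that acts through partner proteins without binding DNA itself, and is an early mark of AT1 fate (ENSMUSG00000059325.14, chr5:77086988-77115121, minus strand). Its normalized counts were 3717, 3249 and 3292 in TNF+ lungs and 10273, 10844 and 9895 in TNF- lungs. The highest TNF+ lung lay at 37.6% of the lowest TNF- lung. The log2 fold change was -1.60 (SE 0.11, 95% interval -1.84 to -1.35, adjusted p = 2e-05). In the GENCODE annotation 20.7% of the 100-base windows of Hopx transcripts were also found in its antisense gene Hopxos, which had at most 26 counts in any lung.

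Spock2 encodes testican-2, a secreted proteoglycan of the matrix (ENSMUSG00000058297.16, chr10:60106219-60135198, plus strand). It was at 5601, 5564 and 5666 normalized counts in TNF+ lungs and 16626, 15860 and 16271 in TNF- lungs. No member varied less within the groups, the coefficient of variation being 0.921% in TNF+ and 2.36% in TNF- lungs. This gave a log2 fold change of -1.53 (SE 0.10, 95% interval -1.76 to -1.31, adjusted p = 1.75e-05).

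**Figure D2:**
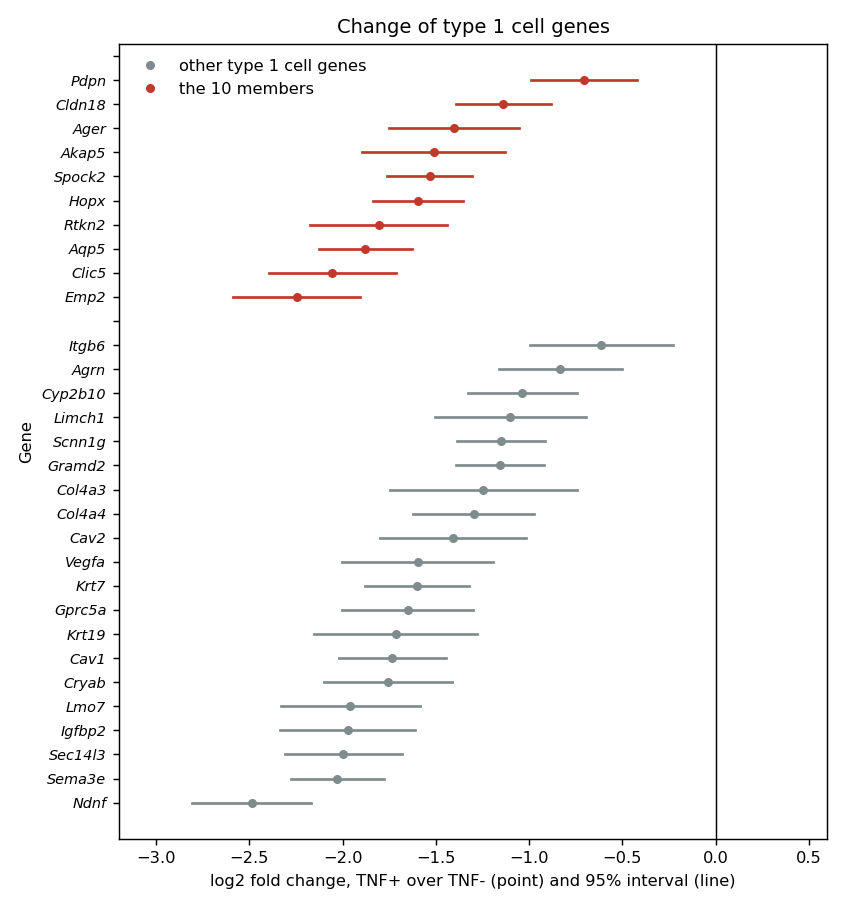
Log2 fold changes (TNF+ minus TNF-) with 95% intervals for the 10 AT1 genes and a wider list of 20 AT1-associated genes, n = 3 lungs per group. Every interval lies below 0, from Ndnf at -2.49 to Itgb6 at -0.61.

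The spread among lungs was modest beside these differences. The median coefficient of variation of the 10 members was 7.08% in TNF+ and 10.3% in TNF- lungs. Among TNF+ lungs, 7 of the 10 members were lowest in replicate 2.

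Together the 10 members took 0.647%, 0.622% and 0.607% of all counts in TNF- lungs and 0.196%, 0.183% and 0.212% in TNF+ lungs. Ager fell less than most, and its share of the members' counts was larger in TNF+ lungs, at 43.1%, 39.8% and 37.5%, than in TNF- lungs, at 31.4%, 34.8% and 36.4%. The groups did not overlap in this share, although TNF+ replicate 3 and TNF- replicate 3 were close.

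Levels were ordered per kilobase of merged exon, the length over which reads could fall. In TNF- lungs Ager stood at 29932 normalized counts per kilobase, followed by Hopx at 6819, Emp2 at 4668, Aqp5 at 3369, Cldn18 at 2950, Spock2 at 2937, Clic5 at 2428, Pdpn at 1188, Rtkn2 at 950 and Akap5 at 894. Ranges over lungs overlapped between Aqp5 and Cldn18, between Cldn18 and Spock2, between Pdpn and Rtkn2 and between Rtkn2 and Akap5, so these neighbours did not separate. In TNF+ lungs Ager stayed first at 11323, with Hopx at 2255, and Emp2 took the fifth place at 983, behind Cldn18 at 1339 and Spock2 at 1014. Aqp5 at 917, Pdpn at 728, Clic5 at 584, Akap5 at 313 and Rtkn2 at 271 followed. Here Spock2 and Emp2, Emp2 and Aqp5, and Akap5 and Rtkn2 overlapped. Pdpn, lower than Clic5 per kilobase in every TNF- lung, was above it in every TNF+ lung.

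A wider list of 20 AT1-associated genes, none of them a member, was lower throughout, with 20 of 20 called, 18 of 20 at a log2 fold change of -1 or less, and a median of -1.60. Every TNF+ lung lay below every TNF- lung for all 20. Those that fell most were Ndnf, a secreted neuron-derived factor (-2.49, SE 0.14, adjusted p = 9.89e-06), Sema3e, a semaphorin (-2.03, SE 0.11, adjusted p = 8.65e-06), and Sec14l3, a lipid-binding protein whose TNF+ mean was 25.1% of the TNF- mean (adjusted p = 2.33e-05). Vegfa, the growth factor through which AT1 cells are known to signal to the capillary beneath, was at 5690, 4623 and 7426 normalized counts in TNF+ lungs and 17995, 18685 and 17036 in TNF- lungs (-1.60 on the log2 scale, adjusted p = 0.000215). Other falls were in Cav1, the caveolar coat protein (-1.73), and in the basement membrane collagen chains Col4a3 (-1.25) and Col4a4 (-1.30). Itgb6, an integrin subunit, fell least (-0.61, adjusted p = 0.0169), and lost its call without TNF+ replicate 2 or without TNF- replicate 2. Lists of airway and of alveolar capillary genes, described below, had similar medians (-1.77 and -1.63). How much of the wider list's RNA came from cells other than AT1 cells was not tested.

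Of 10 regulators of the AT1 program, 7 were lower and none higher, and the median of their log2 fold changes was -0.64. Tead4 (-1.55, SE 0.13, adjusted p = 5e-05) and Tead1 (-1.25, SE 0.14, adjusted p = 0.00025), which encode DNA-binding partners of YAP, fell most. Tead3, which encodes another such partner, fell least of the 7 (-0.41, adjusted p = 0.0111). Nkx2-1 was at 2074, 1761 and 1974 normalized counts in TNF+ lungs and 3667, 3444 and 3875 in TNF- lungs (-0.92, adjusted p = 0.000211). Yap1 was lower (-0.78, adjusted p = 0.00125), as was Wwtr1, which encodes TAZ (-0.50, adjusted p = 0.0158), and Lats2, a kinase that restrains both, was at 1936, 1767 and 1924 normalized counts in TNF+ lungs and 4061, 4269 and 2923 in TNF- lungs (adjusted p = 0.000951). Gata6 (-0.19, adjusted p = 0.357), Lats1 (-0.13, adjusted p = 0.343) and Vgll4 (-0.03, adjusted p = 0.844) did not pass. Wwtr1 lost its call without TNF+ replicate 2 or without TNF- replicate 2, which left 6 of the 10 lower. These regulators are made by many lung cells besides AT1 cells.

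Of 5 genes widely used as YAP and TAZ targets, 3 were lower, namely Amotl2 (-0.98, adjusted p = 0.00156), Ankrd1 (-0.77, adjusted p = 0.00416) and Ajuba (-0.38, adjusted p = 0.0431), the last with overlapping groups. Ajuba lost its call with total counts only, with the replicate block, and without replicate 1 or replicate 2 of either group, while Amotl2 and Ankrd1 kept theirs in each of these. Ctgf (0.07, adjusted p = 0.76) and Cyr61 (-0.35, adjusted p = 0.405) did not pass. Cyr61 was at 2348, 835 and 1167 normalized counts in TNF+ lungs and 1625, 1880 and 2044 in TNF- lungs, and without TNF+ replicate 1, the high lung, it was called lower and the median of the list was -0.92 in place of -0.38.

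Of 11 genes of the transitional state between AT2 and AT1 cells, 7 were lower and 2 higher. Krt8, the keratin after which the state is often named, was at 2488, 2232 and 1797 normalized counts in TNF+ lungs and 5237, 5228 and 6369 in TNF- lungs (-1.37, adjusted p = 0.000186). Areg, an EGF receptor ligand (-1.97, adjusted p = 0.00175), and Krt19 (-1.72, adjusted p = 0.000222) fell most; Krt19 and Itgb6 stand in the wider AT1 list as well. The 2 that rose were Lgals3, galectin-3 (2.38, adjusted p = 7.3e-05), and the stress factor Nupr1 (0.64, adjusted p = 0.0101). Over the alternatives 5 to 8 of the 11 were called lower, the fewest without TNF+ replicate 2. Lgals3 is also abundant in macrophages, and the macrophage gene Cd68 rose beside it (3.33, adjusted p = 1.29e-05). The part of macrophages in the rise of Lgals3 was not tested.

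**Figure D3:**
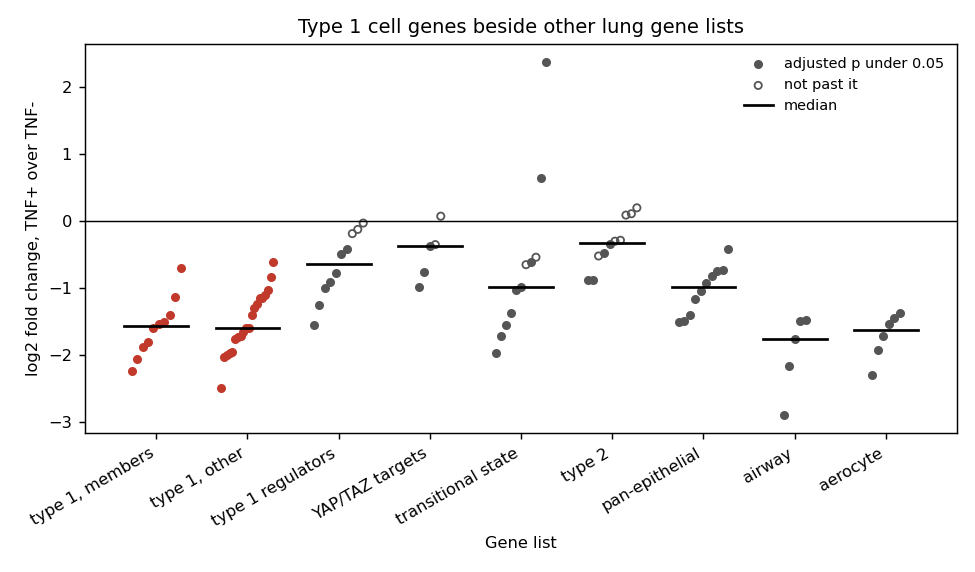
Log2 fold changes of the genes of each list (points) with the list median (bar), for the AT1 genes and some of the other lung gene lists. The AT1 lists lie wholly below 0, and the AT2 list is centred nearer to it at -0.33.

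AT2 genes were abundant in every lung, their summed level being 17422 to 19243 CPM in TNF+ and 23742 to 27468 CPM in TNF- lungs. Of 10 AT2 genes, 4 were lower and none higher, and the median log2 fold change was -0.33. The 4 were Abca3, the surfactant lipid transporter (-0.89, adjusted p = 0.00124), the surfactant protein gene Sftpb (-0.88, adjusted p = 0.00314), Etv5 (-0.48, adjusted p = 0.0251) and Lpcat1 (-0.35, adjusted p = 0.0256). Sftpc, the most specific AT2 marker, was at 381164, 295939 and 287103 normalized counts in TNF+ lungs and 413594, 514545 and 458092 in TNF- lungs (-0.52, adjusted p = 0.0837). Sftpa1 (0.09, adjusted p = 0.718) and Sftpd (0.11, adjusted p = 0.57) did not pass. The count of AT2 calls was not firm. DESeq2 called 6, and limma-voom and total counts only called 5 each, Sftpc among them in all 3, while without TNF+ replicate 2, without TNF- replicate 1 or without TNF- replicate 2 Etv5 and Lpcat1 lost their calls and 2 remained. Lpcat1 also lost its call with the replicate block and without TNF+ replicate 3.

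The members were therefore set against other epithelial genes of the same lung, as differences of the lists' median log2 CPM. Members minus AT2 genes came to -1.88, -1.85 and -1.65 in TNF+ lungs and -0.57, -0.87 and -0.76 in TNF- lungs, a group difference of -1.06 with no overlap. Ager minus Sftpc alone came to -3.75, -3.71 and -3.72 in TNF+ lungs and -2.76, -2.93 and -2.84 in TNF- lungs, a difference of -0.88. With an exact two-sided permutation test p was 0.1, the smallest that 3 lungs against 3 allow.

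General epithelial genes fell too. All 10 of the pan-epithelial list were lower, with a median of -0.99, led by the adherens junction cadherin Cdh1 (-1.51, adjusted p = 3.04e-05), the trafficking GTPase Rab25 (-1.50, adjusted p = 0.000144) and the claudin Cldn7 (-1.40, adjusted p = 0.000146), while Epcam fell by less (-0.43, adjusted p = 0.0128). Their summed level was 264 to 273 CPM in TNF+ lungs and 591 to 671 CPM in TNF- lungs. Members minus pan-epithelial genes came to 3.13, 2.98 and 3.32 log2 CPM in TNF+ lungs and 3.56, 3.69 and 3.65 in TNF- lungs, a difference of -0.49 with no overlap. Ager minus Epcam differed by -0.99 (exact two-sided permutation p = 0.1, the smallest possible), but Epcam fell least of the 10, and the falls of Cdh1, Rab25 and Cldn7 were about as large as that of Ager (-1.40).

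**Figure D4:**
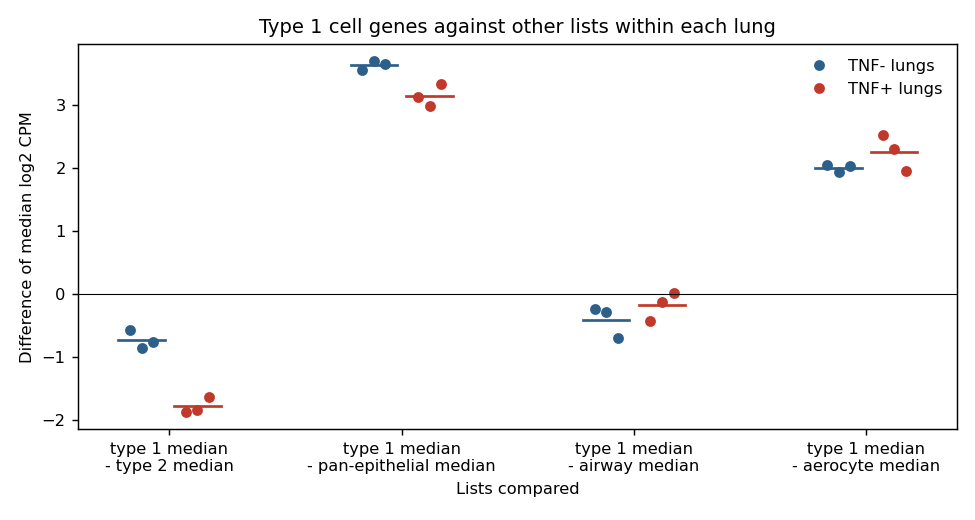
Difference within each lung between the median log2 CPM of the 10 AT1 genes and that of 4 other gene lists, with points for the 6 lungs and bars for group means. TNF+ lungs lie below TNF- lungs against AT2 and pan-epithelial genes, and the groups overlap against airway and aerocyte genes.

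Airway and capillary genes were lower as well. All 5 airway genes fell (median -1.77), among them the mucin Muc5b (-2.90, adjusted p = 8.18e-05), Cyp2f2 (-2.17) and the club cell secretoglobin Scgb1a1 (-1.77). Aerocytes are the alveolar capillary cells that lie against AT1 cells, and all 6 of their genes fell (median -1.63), led by the endothelin receptor Ednrb (-2.30, adjusted p = 1.29e-05), Fibin (-1.93) and the carbonic anhydrase Car4 (-1.72). Members minus airway genes ranged from -0.44 to 0.02 log2 CPM in TNF+ lungs and from -0.70 to -0.24 in TNF- lungs, and members minus aerocyte genes from 1.95 to 2.52 and from 1.93 to 2.05, so that the groups overlapped in both.

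Leukocyte genes moved the other way. Of 7 markers 5 were higher, led by Cd68, the integrin Itgam (2.65, adjusted p = 2.72e-06) and Ptprc, which encodes CD45 (1.43, adjusted p = 8.14e-05). The 7 summed to 7108 to 8771 CPM in TNF+ lungs and 2706 to 3000 CPM in TNF- lungs, while the 10 members summed to 1830 to 2122 and 6075 to 6470 CPM. The part of the leukocyte RNA in the members' values was not tested.

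Of 10 binding partners of Ager and Pdpn, 6 were lower, 3 higher and 1 did not pass. Among RAGE ligands, S100a4 rose from 80.3, 62.3 and 162 normalized counts in TNF- lungs to 662, 650 and 641 in TNF+ lungs (2.68, SE 0.32, adjusted p = 0.000326), and Hmgb1 rose by less (0.46, adjusted p = 0.0208). S100a9 (-1.77, adjusted p = 0.00569), S100a8 (-1.04, adjusted p = 0.0203) and S100b (-1.46, adjusted p = 0.00548) fell. Adam10, the protease that sheds RAGE from the cell surface, rose (0.58, adjusted p = 0.00372). Clec1b, the CLEC-2 receptor of podoplanin carried by platelets and some myeloid cells, fell from 315, 281 and 421 normalized counts to 38.2, 112 and 55.7 (-2.29, SE 0.37, adjusted p = 0.00141). Of the cortical linkers that podoplanin and CLIC5 engage, ezrin (Ezr, -0.67, adjusted p = 0.00362) and radixin (Rdx, -0.35, adjusted p = 0.0251) fell and moesin (Msn, -0.10, adjusted p = 0.527) did not pass. Calls were lost under some alternatives for 3 of the partners. Hmgb1 lost its call with total counts only, without TNF+ replicate 1 and without TNF- replicate 2. S100a8 lost its call without TNF+ replicate 2, TNF+ replicate 3 or TNF- replicate 3. Rdx lost its call with the replicate block and without replicate 1 or replicate 2 of either group.

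The genes whose pattern over the 6 lungs was most like that of Ager were sought among 14989 tested genes outside the list, by the root mean square difference of centred log2 CPM. The nearest were Prkcz, an atypical protein kinase C of epithelial polarity (0.0331, log2 fold change -1.46), Slc23a1, a vitamin C transporter (0.0484, -1.51), Scnn1b, a subunit of the epithelial sodium channel (0.0484, -1.36), Gata5, a zinc finger transcription factor (0.0520, -1.41), and the little-studied AU021092 (0.0532, -1.35). Of the other members Hopx was nearest to Ager, at 0.115, and Emp2 farthest, at 0.443. Since the lungs fall into 2 groups, the measure reflects both the size of a gene's fall and its spread among lungs.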

How the data were processed

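Whole lungs of 3 TNF+ and 3 TNF- mice were sequenced single-end from stranded poly(A) libraries, 1 library per mouse. Per the submitters' processing notes, the authors trimmed reads with Trimmomatic (version 0.36), mapped them with STAR (version 2.5.2b) to GRCm38.p5 (mm10) and counted them with featureCounts; its strand setting and gene annotation are not given in the sources used here. The paper's methods name another version of Trimmomatic than these notes. The deposited values are raw counts per gene symbol, without normalization.

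After filterByExpr and TMM scaling, a model with genotype alone was fitted in edgeR (version 4.0.16, under R version 4.3.3). Genes were compared by its quasi-likelihood F-test, and p-values were adjusted across the 19199 genes by the Benjamini-Hochberg method, with a cutoff of 0.05. The size of a log2 fold change over the root of its F statistic gave the standard error, and t quantiles gave the 95% intervals. For normalized counts, every library was rescaled so that its TMM-adjusted total equalled the mean total. A prior count of 2 went into log2 CPM. Gene models came from GENCODE (GRCm38) and promoters from RefSeq (GRCm38.p6). Groups were read from the genotype labels. The edgeR step was tested on simulated data.

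The members and lists were chosen with earlier results of these data known. Named were all members, the 3 called genes of each other list with the largest change and others needed to describe a list, and the 5 genes nearest to Ager. Mice are separate animals. Alternatives were DESeq2 (version 1.42.0), limma-voom (limma version 3.58.1), other scalings and filters, a minimum fold change, a replicate block and leaving out each lung. No label pairs the lungs by replicate number. The deviations of same-numbered lungs correlated at -0.149, -0.00429 and -0.242, which cannot show whether animals were linked.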

Additional observations from a re-analysis of the deposited data

How the results depend on the processing

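Each of the 10 AT1 genes kept its direction and its call in all 13 alternatives with a test against no change, 130 of 130 in all. With a replicate block, which the labels do not justify, all 10 members were called with adjusted p up to 0.00989 (Pdpn), and 7686 genes in all were called against 9096. Of the other genes named, Ajuba, Lpcat1, Rdx, Ckm and Tnnt3 lost their calls with the block. Leaving out 1 lung at a time gave log2 fold changes of -1.56 to -1.35 for Ager, -2.36 to -2.19 for Emp2 and -0.84 to -0.62 for Pdpn, and 7347 to 9164 calls over all genes. When a log2 fold change of at least 1 in size was also required, 9 members, 18 of the 20 wider AT1 genes and 4320 of all genes were called. Within-lung differences from AT2 and pan-epithelial genes kept their sign under every alternative run. The wider list lost 1 call without TNF+ replicate 2 or TNF- replicate 2. Scaling to total counts alone gave 8085 calls over all genes. With 3 lungs per group, single-value permutation tests cannot go below p = 0.1.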
